A study of Caenorhabditis elegans with 2 samples.

Results

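The 10 genes described here encode the core of insulin and TOR signalling in Caenorhabditis elegans, taken by name from 19973 protein-coding genes of the Ensembl annotation: daf-2, age-1, pdk-1, akt-1, akt-2, daf-18, daf-16, daf-15, let-363 and aak-2. Binding of the nuclear hormone receptor NHR-47 at these genes was read from ChIP-seq, in which DNA attached to a chosen protein is pulled down with an antibody and sequenced. The worms were of strain OP481, genotype unc-119(tm4063) III; wgIs481, in which a transgene gives NHR-47 a GFP-FLAG tag at its C terminus, and the labels describe an immunoprecipitation with an anti-GFP antibody, although their antibody field names nhr-47. Whole hermaphrodite L1 larvae were collected 6 h after synchronization by starvation of bleached animals, in 2 biological replicates of 1 group, with no second genotype, stage or feeding state. The promoter that drives the transgene, and whether the larvae were fed during these hours, were not found in the labels. Because whole animals were used, strong binding in few cells and weak binding in many cells cannot be told apart.

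DAF-2 is the worm's insulin and IGF-1 receptor, and AGE-1, the catalytic subunit of phosphoinositide 3-kinase, makes the lipid signal below it. The kinases PDK-1, AKT-1 and AKT-2 pass that signal on and keep the FOXO transcription factor DAF-16 out of the nucleus, while the phosphatase DAF-18 opposes AGE-1. LET-363 is the TOR kinase, DAF-15 its partner Raptor in TOR complex 1, and AAK-2 a catalytic subunit of AMP-activated kinase. Larvae that hatch without food stop development as arrested L1 larvae, a state that depends on DAF-16 and DAF-18.

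The NHR-47 data held 17 thresholded summits in the windows of 9 of the 10 genes, and age-1 had none. A summit is the point of highest signal in a region, and each gene's window ran from 2 kb upstream of its 5′ end to its 3′ end. Thresholded regions are those the authors kept by the irreproducible discovery rate, which judges how well regions repeat between replicates. The regions kept were the 5357 of highest signal in the list called from both replicates pooled. Of these, 5312 were found in both replicates, so membership is a cut on pooled signal and no ranking by replicate agreement. Among all protein-coding genes, 24.2% had such a summit in the window, with an exact 95% interval of 23.6% to 24.8% that covers counting error only. The member windows were longer, with a median of 9519 bp against 4027 bp over all genes. With 1 group, and members chosen by name with earlier results of these data known, no test was made.

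The strongest summits lay in introns of aak-2, the AMP-activated kinase gene, and of pdk-1, the kinase between AGE-1 and the AKT kinases. Of the 17 summits, 11 lay in introns, 5 upstream of the gene and 1 in a coding exon. Over the 4391 thresholded summits in the windows of protein-coding genes, 30.1% lay in introns, 60.6% upstream and 9.38% in exons. Every window has the same 2 kb upstream, so the longer member windows, with a median of 9519 bp against 4027 bp, hold more gene body. Whether member summits favour introns beyond this was not tested. Coordinates (ce11, the UCSC name of WBcel235) count from 1, and distances are from the gene's annotated 5′ end along its own strand.

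The sequence around a summit is printed for 5 of the 17, with 50 bases on either side, read on the gene's strand from the reference genome. These are the strongest summits of aak-2 and pdk-1, the pair of member summits that hold AGGTCA, the sequence recognised by many nuclear receptors, and the single summit in a coding exon, at the start of daf-15. Capitals mark matches to the motifs searched. In the aak-2 window they are GACGCA, in the daf-2 window the reverse complement of AGGTCA. In the akt-2 window they are first AGGTCA and then matches to GAGAGA on the other strand. The aak-2 window is chrX:16796963-16797063 (plus strand), the pdk-1 window chrX:1323122-1323222 (plus strand), the daf-2 window chrIII:3037434-3037534 (minus strand), the akt-2 window chrX:14146896-14146996 (plus strand) and the daf-15 window chrIV:9386180-9386280 (plus strand).
aak-2, 926 bp downstream of the 5′ end: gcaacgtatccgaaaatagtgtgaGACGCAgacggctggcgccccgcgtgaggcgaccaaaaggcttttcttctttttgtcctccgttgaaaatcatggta
pdk-1, 1828 bp downstream of the 5′ end: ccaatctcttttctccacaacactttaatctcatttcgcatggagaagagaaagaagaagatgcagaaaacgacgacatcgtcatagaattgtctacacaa
daf-2, 3362 bp downstream of the 5′ end: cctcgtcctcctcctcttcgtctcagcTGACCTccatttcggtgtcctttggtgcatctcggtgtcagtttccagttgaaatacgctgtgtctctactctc
akt-2, 754 bp upstream of the 5′ end: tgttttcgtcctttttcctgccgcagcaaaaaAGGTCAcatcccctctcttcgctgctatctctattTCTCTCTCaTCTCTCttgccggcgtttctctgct
daf-15, 22 bp downstream of the 5′ end: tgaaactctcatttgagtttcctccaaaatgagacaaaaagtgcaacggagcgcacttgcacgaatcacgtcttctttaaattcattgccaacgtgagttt

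The authors' thresholded list held 5357 regions, whose signal, the authors' own enrichment value of a region, ran from 77.0 to 4060.5. Rank 1 is the highest signal. The pooled list and each replicate's list held 30000 regions, weak ones included, so presence in them says little by itself. The files gave no read counts, and the depth of the libraries is unknown. Since signal was on another scale in each replicate, a relative signal is also given, the replicate's signal divided by its median over thresholded regions found in both replicates, which was 66.75 in replicate 1 and 92.18 in replicate 2. The log2 ratio of replicate 2 to replicate 1 relative signal had an SD of 0.498 over all such regions.

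**Figure D1:**
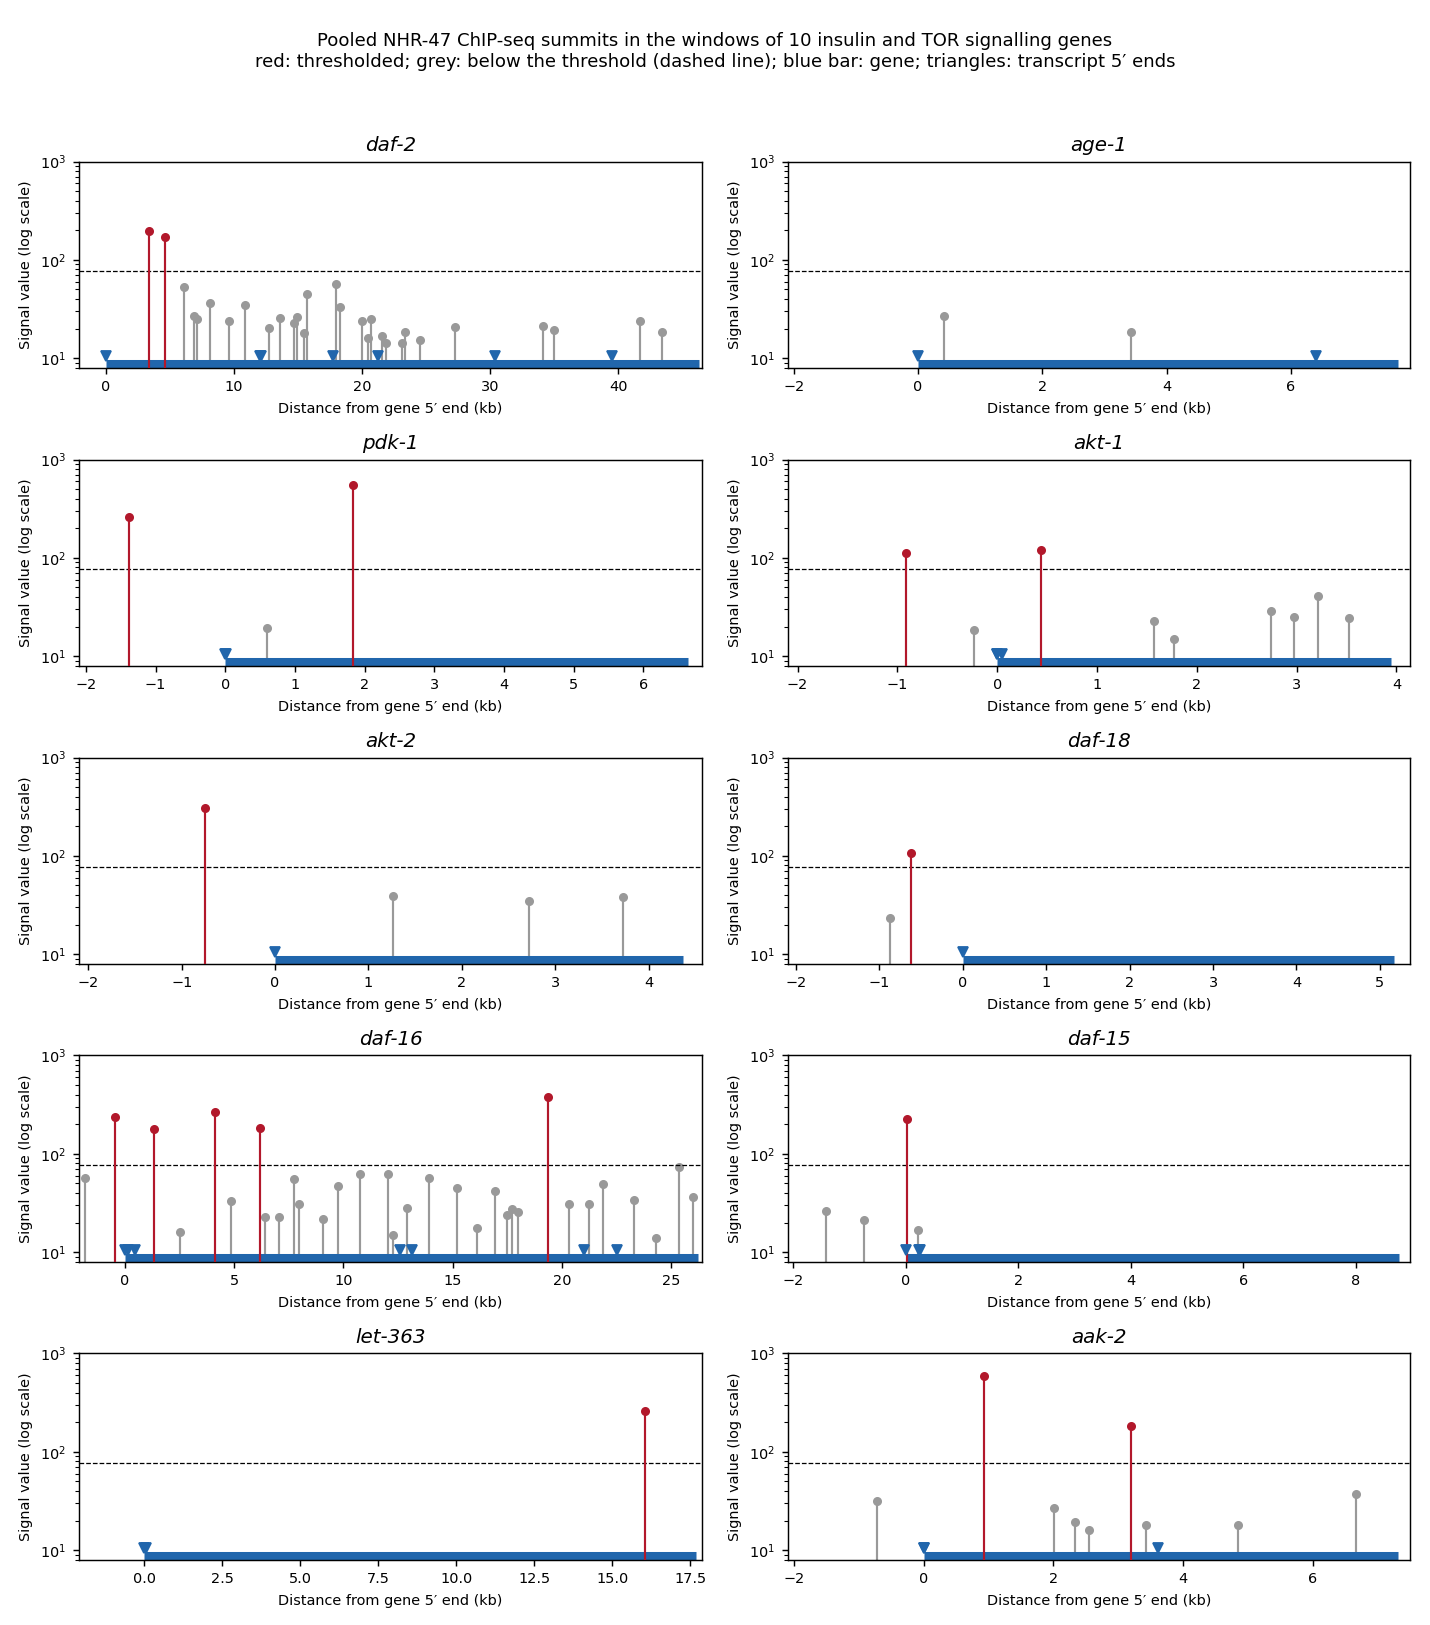
NHR-47 ChIP-seq summits along the windows of the 10 genes, with distance from the gene's 5′ end on the horizontal axis and pooled signal on a logarithmic vertical axis. The 17 thresholded summits stand above the other pooled summits by construction, since the thresholded list holds the pooled regions of highest signal. Of the many summits below the threshold, daf-2 and daf-16 have the most, and age-1 has none above it.

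The insulin receptor gene daf-2 (WBGene00000898, chrIII:2994514-3040846, minus strand) held 2 thresholded summits, both in the first intron of its longest transcript and both within a long noncoding RNA gene, linc-143. The stronger lay 3362 bp downstream of the daf-2 5′ end, in the region chrIII:3037274-3037693, and 59 bp downstream of the 5′ end of linc-143. Its signal was 89.9 in replicate 1, 113 in replicate 2 and 199 in the pooled list, where it ranked 2095. Its relative signal was 1.35 in replicate 1 and 1.23 in replicate 2, a mean of 1.29 ± 0.082 (SD, n = 2), which is above the median region in both.

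The second daf-2 summit lay at 4618 bp, in the region chrIII:3036018-3036437. Its signal was 79.9 in replicate 1 and 94.2 in replicate 2, with a pooled signal of 172 and rank 2442, and its relative signal averaged 1.11 ± 0.12 (SD, n = 2). The transcripts of daf-2 begin at 7 different places, and both summits lay upstream of all but the longest transcript. The nearest of the others, Y55D5A.5a.1, begins 12046 bp downstream of the gene's 5′ end, 7428 bp beyond the nearer summit. The pooled list placed 27 further summits in the 48.3 kb daf-2 window, all below the threshold, with signals of 14.3 to 56.5.

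The gene age-1 (WBGene00000090, chrII:11519328-11527054, minus strand) was the member with no thresholded summit. Its pooled list held 2 weak summits, at 416 bp in coding sequence with a signal of 26.6 and rank 16881, and at 3421 bp in an intron with a signal of 18.3 and rank 24356. The summit at the 5′ part of the gene was also listed in replicate 1 with a signal of 11.5 at 419 bp, and in replicate 2 with 15.2 at 423 bp. In each replicate that was below the signal of every thresholded member summit. The summit further into the gene had a counterpart in replicate 1 at 3399 bp, with a signal of 11.2, and none in replicate 2.

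The gene pdk-1 (WBGene00003965, chrX:1321344-1327986, plus strand) held 2 thresholded summits, one upstream of the gene and one in the second intron of the transcript H42K12.1b.1. The intronic summit lay at 1828 bp, in the region chrX:1323009-1323358. Its signal was 231 in replicate 1, 326 in replicate 2 and 557 in the pooled list, where it ranked 527. Its relative signal of 3.46 in replicate 1 and 3.54 in replicate 2 averaged 3.5 ± 0.059 (SD, n = 2), and the log2 ratio between the replicates was 0.03.

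The upstream summit of pdk-1 lay 1388 bp before the 5′ end, in the region chrX:1319830-1320090, with no other gene's 5′ end within 2 kb. Its signal was 107 in replicate 1 and 149 in replicate 2, with a pooled signal of 262 and rank 1508. Relative signals of 1.6 and 1.62 averaged 1.61 ± 0.012 (SD, n = 2), below both replicate values of the intronic summit. Of the 17 sequence windows, this one had the highest GC content, at 66.3%.

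The kinase genes akt-1 and akt-2, which encode the worm's AKT kinases, both had a thresholded summit upstream, but at different strengths. The akt-2 gene (WBGene00000103, chrX:14147700-14152070, plus strand) had 1 summit, 754 bp upstream, in the region chrX:14146795-14147099. Its signal was 130 in replicate 1, 185 in replicate 2 and 307 pooled, at rank 1242. Its relative signal of 1.95 and 2 averaged 1.98 ± 0.038 (SD, n = 2).

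The akt-1 gene (WBGene00000102, chrV:10248905-10252845, plus strand) had 2 weaker summits. The one at 441 bp, in the first intron and the region chrV:10249136-10249555, had signals of 53.5 in replicate 1 and 67.4 in replicate 2, with a pooled signal of 119 and rank 3531. The one 916 bp upstream, in the region chrV:10247779-10248198, had signals of 53.4 and 56.8, with a pooled signal of 112 and rank 3723. Relative signals averaged 0.766 ± 0.05 at the intronic summit and 0.708 ± 0.13 at the upstream one (SD, n = 2 each). Both replicate values of each akt-1 summit were under the median region, and both were under the replicate values of the akt-2 summit.

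The phosphatase gene daf-18 (WBGene00000913, chrIV:420011-425177, minus strand) had the weakest thresholded summit of the set, 616 bp upstream in the region chrIV:425583-426002. Its signal was 35.2 in replicate 1 and 74.3 in replicate 2, with a pooled signal of 106 and rank 3890. It ranked 5512 in replicate 1 and 3340 in replicate 2, the only member summit outside the 5357 highest regions of a replicate. Relative signals of 0.527 and 0.806 averaged 0.666 ± 0.2 (SD, n = 2). The summit also lay 375 bp upstream of the neighbouring protein-coding gene garr-1, which is read in the other direction, and garr-1 has the nearest protein-coding 5′ end.

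The FOXO gene daf-16 (WBGene00000912, chrI:10750498-10776703, plus strand) held 5 thresholded summits, the most of the 10 genes. Its 11 transcripts begin at 7 different places, and the summits were spread from upstream of the first to 1638 bp before a late one. The strongest lay at 19372 bp, in the region chrI:10769712-10770058. It had signals of 172 in replicate 1 and 203 in replicate 2, a pooled signal of 375 and rank 947. Its relative signal of 2.58 and 2.2 averaged 2.39 ± 0.27 (SD, n = 2). This summit was in an intron of the longer transcripts and 1638 bp upstream of the 5′ end of R13H8.1a.1. By annotated gene starts, the nearest protein-coding 5′ end was that of another gene, gpx-8.

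Upstream of daf-16, a summit 444 bp before the 5′ end, in the region chrI:10749970-10750128, had signals of 94 in replicate 1 and 139 in replicate 2, a pooled signal of 235 and rank 1721. It also lay within the small noncoding RNA genes H36N01.1 and H36N01.4. The other three daf-16 summits were in the third intron of R13H8.1f.1. They lay at 1315 bp with a pooled signal of 178 and rank 2353, at 4128 bp with a pooled signal of 268 and rank 1477, and at 6189 bp with a pooled signal of 185 and rank 2261. Relative signals averaged 1.46 ± 0.071 at the upstream summit, 1.08 ± 0.031 at 1315 bp, 1.69 ± 0.32 at 4128 bp and 1.14 ± 0.0028 at 6189 bp (SD, n = 2 each). All 5 daf-16 summits were thus above the median region in both replicates, and the summit at 19372 bp was above the other four in both.

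The pooled list placed 27 further summits below the threshold in the 28.2 kb daf-16 window, with signals of 14 to 72.8. The highest of these, in a 3′ UTR exon 25368 bp into the gene, ranked 5662, just outside the 5357 that passed. Having 5 or more thresholded summits was uncommon, at 0.235% of all protein-coding genes and 7.98% of the 263 genes with windows over 20 kb. Having 2 or more was seen at 5 of the 10 members, namely daf-2, pdk-1, akt-1, daf-16 and aak-2, and at 4.7% of all protein-coding genes.

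**Figure D2:**
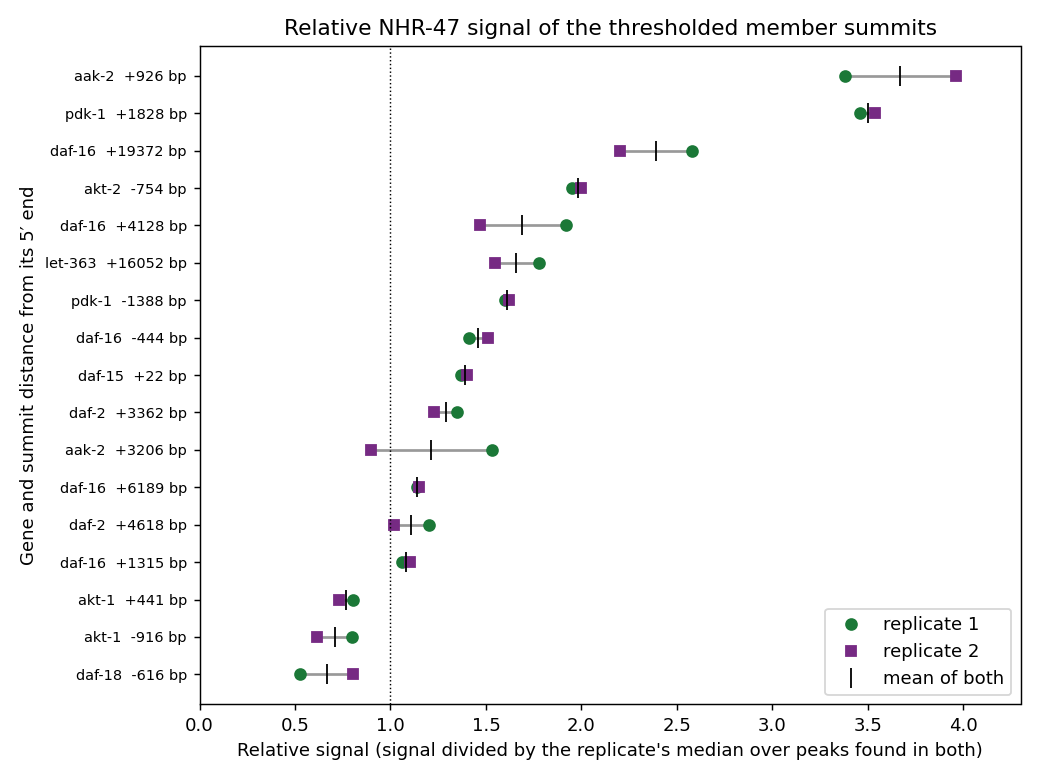
Relative signal (replicate signal divided by the replicate's median over thresholded regions found in both) at each of the 17 thresholded summits, with both replicates and their mean. The aak-2 summit at 926 bp and the pdk-1 summit at 1828 bp stand above the rest, and those of akt-1 and daf-18 are below 1 in both replicates.

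The Raptor gene daf-15 (WBGene00000911, chrIV:9386208-9394979, plus strand) was the only member whose summit was in a coding exon, 22 bp downstream of the gene's 5′ end in exon 1 of C10C5.6c.1. The other transcripts of daf-15 begin 242 or 249 bp downstream of that end. In the region chrIV:9386121-9386303 the signal was 91.8 in replicate 1 and 129 in replicate 2, with a pooled signal of 227 and rank 1791. Relative signals of 1.37 and 1.4 averaged 1.39 ± 0.017 (SD, n = 2), close to the median of the 17 summits.

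The TOR kinase gene let-363 (WBGene00002583, chrI:5245743-5263424, plus strand) had 1 thresholded summit, deep in the gene at 16052 bp, in intron 29 of B0261.2a.1. The region chrI:5261670-5261884 had signals of 119 in replicate 1 and 143 in replicate 2, a pooled signal of 260 and rank 1524. Its relative signal averaged 1.66 ± 0.16 (SD, n = 2). The nearest protein-coding 5′ end was that of another gene, vep-1, 1899 bp further on.

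Upstream of let-363, both replicate lists held a strong region that neither the pooled nor the thresholded list did. Replicate 1 had a summit 1456 bp upstream, in chrI:5244193-5244358, with a signal of 128 and rank 1299. Replicate 2 had one 1462 bp upstream, in chrI:5244168-5244385, with a signal of 190 and rank 1149. Relative signals of 1.91 and 2.06 averaged 1.98 ± 0.11 (SD, n = 2), above the let-363 summit that was thresholded. The region lay at the 5′ end of the neighbouring gene mrpl-47, named for a mitochondrial ribosomal protein, 4 bp downstream of it in replicate 1 and 2 bp upstream in replicate 2.

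Such regions were rare in these lists. Of the 5357 highest regions of replicate 1, 4408 overlapped one of the 5357 highest of replicate 2, and 43 of those, or 0.975%, overlapped no region of the pooled list. The let-363 region was the third of the 43 by replicate 1 signal and the only one in a member window. Why it is missing from the pooled list was not tested. It is in no count from the thresholded or pooled list, but is among the regions counted when 1 replicate is left out.

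**Figure D3:**
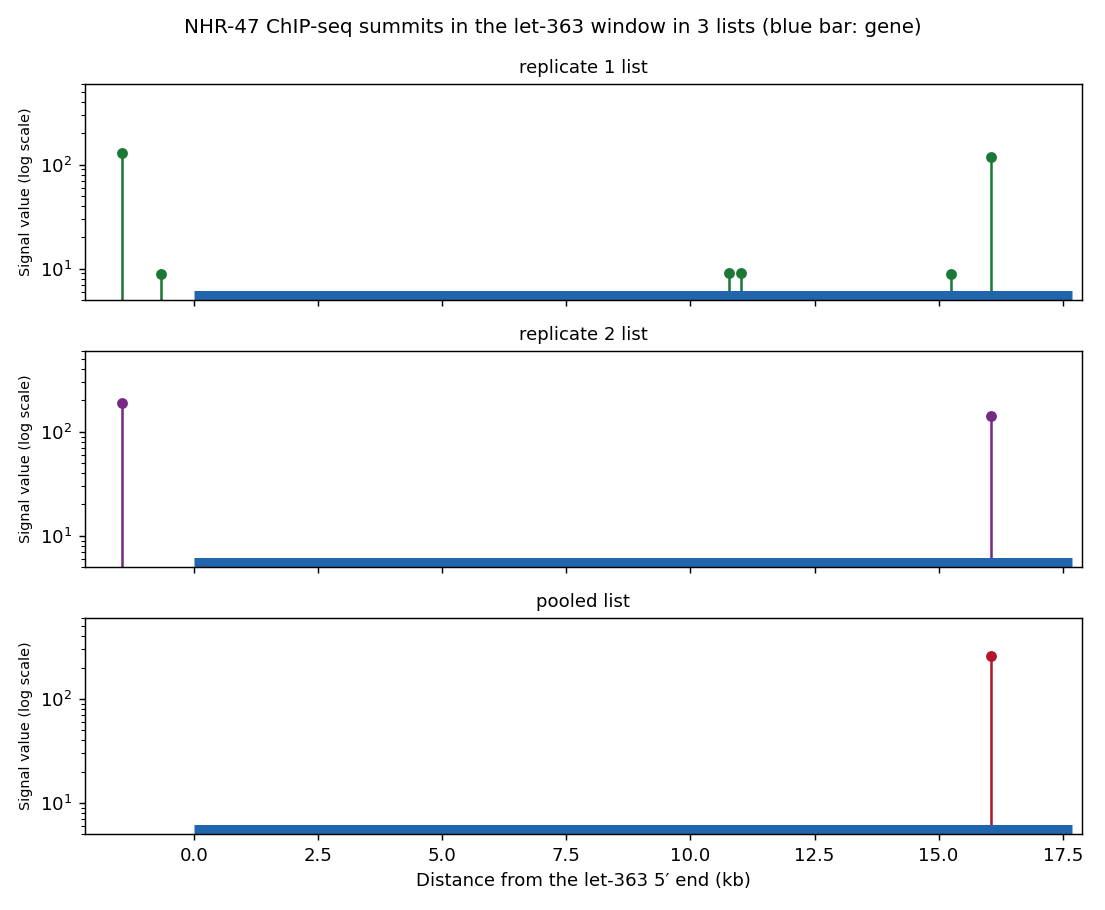
Signal (logarithmic axis) of every summit in the let-363 window in the replicate 1, replicate 2 and pooled lists, against distance from the gene's 5′ end. The summit near 16052 bp is in all of them, while the one about 1456 bp upstream is in both replicate lists and not in the pooled list.

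The gene aak-2 (WBGene00020142, chrX:16796087-16803398, plus strand) carried the strongest member summit, at 926 bp in the first intron of T01C8.1b.1 and 161 bp downstream of the 5′ end of the small noncoding RNA gene T01C8.9. In the region chrX:16796772-16797219 its signal was 226 in replicate 1, 365 in replicate 2 and 587 in the pooled list, where it ranked 488. Relative signals of 3.38 and 3.96 averaged 3.67 ± 0.41 (SD, n = 2). The replicate values lay on both sides of those of the pdk-1 intron summit, so these summits cannot be ordered.

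The second aak-2 summit, at 3206 bp in the region chrX:16799287-16799398, lay 414 bp upstream of the shorter transcript T01C8.1c.1. Its signal was 102 in replicate 1 and 82.8 in replicate 2, with a pooled signal of 184 and rank 2269. Its relative signal was 1.53 in replicate 1 and 0.898 in replicate 2, averaging 1.21 ± 0.44 (SD, n = 2). It was the least repeatable member summit, with a log2 ratio of replicate 2 to replicate 1 of -0.76.

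By the relative signal of each gene's strongest summit, the order was aak-2, pdk-1, daf-16, akt-2, let-363, daf-15, daf-2, akt-1 and daf-18. The replicate ranges of aak-2 and pdk-1 overlapped, and so did those of akt-1 and daf-18, while those of the other neighbours in this order did not. With 2 replicates these ranges give only a rough idea of the error.

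The replicates gave like values at most member summits. The log2 ratio of relative signals was within 0.5 of 0 at 15 of the 17, the exceptions being the daf-18 summit, at 0.61, and the second aak-2 summit. The share within 0.5 over all thresholded regions was not counted. The SD of this ratio was 0.498 over all those found in both replicates, and 0.628 in a band of weaker regions below the median rank. Since 14 of the member summits ranked above that median, the count may reflect their signal. Whether they repeat better than other regions of like signal was not tested. Relative signal was higher in replicate 2 at 9 summits and lower at 8, and 48.8% of all thresholded regions were higher in replicate 2. The summit position in a replicate differed from the thresholded one by at most 38 bp. Of the 17 summits, 16 were among the 5357 highest regions of both replicates, and the same share over all thresholded regions was not counted.

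**Figure D4:**
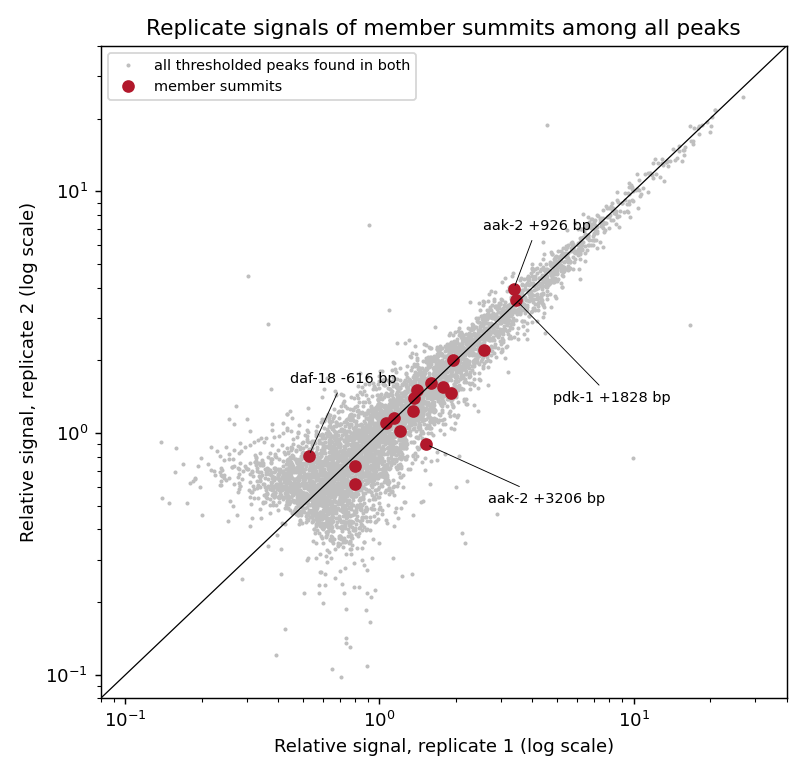
Relative signal in replicate 2 against replicate 1 on logarithmic axes, for all thresholded regions found in both replicates and for the 17 member summits. Most member summits lie near the diagonal, with daf-18 above it and the aak-2 summit at 3206 bp below it.

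The median relative signal of the 17 member summits was 1.39, with a range of 0.67 to 3.67, and that of all thresholded regions was 0.991. Of the member summits, 14 ranked above the list's median, and their own median rank was 1791 of 5357. In number per length, member windows held 0.11 thresholded and 0.62 pooled summits per kb, and all protein-coding gene windows held 0.06 and 0.29. These are descriptions of the named genes, with no test of whether other genes of such length differ.

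Window length went with the share of genes that had a thresholded summit. The only member with a window of 4 to 6 kb, akt-1, had a summit, and so did 24.2% of the 5712 genes of that length. At 6 to 10 kb, 4 of 5 members and 33.6% of 2892 genes had one. At 10 to 20 kb it was 2 of 2 members, daf-15 and let-363, and 43.1% of 1247 genes, and over 20 kb it was 2 of 2 members, daf-2 and daf-16, and 53.2% of 263 genes. The member counts in each class are too small to say more than this.

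At the start of the gene lay 2 of the 17 summits, a share that was not counted over all thresholded summits. With the promoter window taken as the last 500 bp before the 5′ end and the first 200 bp after it, 2 of the 10 members had a thresholded summit, daf-16 and daf-15, against 12.8% of all protein-coding genes. Counting the 5′ end of any transcript added aak-2, for 3 of 10 members against 13.9% of all genes. These counts are within 2 genes of the background and are no result about the set. All 10 members had at least 1 region of the pooled list in their window, against 47.5% of all genes. Of the 95 pooled summits at members, 78 were below the threshold, 54 of them at daf-2 and daf-16. In the whole pooled list only 5357 of 30000 regions passed it, so a large share below it is usual. Of the 78 at members, 57 lay in introns, 12 in coding exons and 6 upstream, a split not made over all pooled regions.

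No motif searched was in more than 3 of the 17 sequence windows. AGGTCA, on either strand, was in 2 of them, at daf-2 and akt-2, and in 2.67% of all 5357 thresholded windows. The DAF-16 binding element GTAAACA was in 1, at the summit upstream of daf-16 itself, and in 2.24% of all. The E-box CACGTG, bound by HLH-30 and other basic helix-loop-helix factors, was in 1, the daf-16 summit at 1315 bp, and in 5.39% of all.

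GAGAGA was in 3 windows, at daf-2, akt-2 and the strongest daf-16 summit, and in 1343 of all 5357, and overlapping matches within a run were counted as 1 window. GACGCA, added after the sequences had been seen, was in 3, the daf-2 summit at 4618 bp, the upstream pdk-1 summit and the strongest aak-2 summit, and in 14.6% of all. The element CTTATCA, found near DAF-16 targets, was in 0 of 17 and in 1.57% of all. The splice acceptor TTTCAG was also in 0 of 17 and in 7.88% of all. The median GC content was 43.6% in member windows and 45.5% in all.

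Beyond the 10 genes, 33 of 62 other genes of these pathways, from 6 lists, had a thresholded summit in the window, or 53.2%, beside 24.2% of all protein-coding genes. Their median window was 5246 bp, against 4027 bp over all protein-coding genes. The lists were drawn up with earlier results of these data known, so the shares are descriptions and no independent support. Of the phosphoinositide 3-kinase arm, 3 of 6 genes had one. The strongest was at pptr-1, a regulatory subunit of protein phosphatase 2A that acts on AKT-1, 1428 bp upstream with a signal of 588 and a relative signal of 3.68 ± 0.047 (SD, n = 2). The gene aap-1, the adaptor subunit of AGE-1, had one 1657 bp upstream, at 1.37 ± 0.048, which also lay in the promoter windows of pas-3 and use-1. The insulin receptor substrate gene ist-1 had 3 summits, all below the median region, the strongest at 0.812 ± 0.025.

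Among partners and regulators of DAF-16, 10 of 15 genes had a summit. At ftt-2, a 14-3-3 protein that binds DAF-16, the summit 652 bp upstream had a signal of 1503 and rank 70, with relative signals of 9.4 in replicate 1 and 8.84 in replicate 2. That is above every summit of the 10 core genes in both replicates. This ftt-2 summit lay outside the gene's own promoter window and in those of the noncoding RNA genes F52D10.7 and F52D10.12. The other 14-3-3 gene, par-5, had 2.07 ± 0.056 at 166 bp upstream, also in the promoter window of M117.3, and skn-1, a stress-response transcription factor, 2.76 ± 0.15 in an intron (SD, n = 2 each). At smk-1, a DAF-16 cofactor, the strongest summit, at 4.64 ± 0.32, was in the promoter window of its neighbour vps-60. The deacetylase gene sir-2.1 had 1.71 ± 0.54 at 61 bp upstream (SD, n = 2), with 1.32 in replicate 1 and 2.09 in replicate 2.

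Of the TOR complexes and regulators, 5 of 12 had a summit, 4 of them in the promoter window. Over all 6 lists, 15 of 62 genes had a promoter summit, beside 12.8% of all protein-coding genes. It was 0 of 6 in the phosphoinositide 3-kinase arm and 5 of 15 among DAF-16 partners and regulators. Below TOR it was 2 of 6, in the AMP-activated kinase list 2 of 13, and among DAF-16 targets and L1 arrest effectors 2 of 10. The gene rict-1, which encodes the Rictor subunit of TOR complex 2, had 3.71 ± 0.7 at 516 bp upstream, in the promoter window of gfm-1. The gene of the TOR activator RHEB-1, rheb-1, had 3.47 ± 0.26 at 269 bp upstream, in that of spk-1 as well. The Ragulator gene lmtr-3 had 2.25 ± 0.13, the folliculin gene flcn-1 1.41 ± 0.11 and the Rag GTPase gene ragc-1 0.848 ± 0.16 (SD, n = 2 each). The lmtr-3 summit was also in the promoter window of atp-5, and the ragc-1 summit in that of Y24F12A.1.

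Of the genes that act below TOR, 5 of 6 had a summit. They were unc-51, the autophagy kinase, at 2.81 ± 0.08, hlh-30, the TFEB transcription factor, with 8 summits of which the strongest was 1.92 ± 0.35, the translation factor genes ife-2, at 1.8 ± 0.28, and ifg-1, at 0.991 ± 0.16, and the S6 kinase gene rsks-1, at 1.68 ± 0.31 (SD, n = 2 each). The ifg-1 summit lay outside its own promoter window and in that of M110.3. Of the AMP-activated kinase list, 7 of 13 had one. The gamma subunit gene aakg-5 had 3.03 ± 0.24 at 34 bp upstream, and aakg-1, with 5 summits, had 2.9 ± 0.37 at its strongest. The transcriptional coactivator gene crtc-1, whose product AMP-activated kinase regulates, had 1.96 ± 0.041, and the beta subunit genes aakb-2 and aakb-1 had 1.07 ± 0.18 and 1.02 ± 0.073. The aakb-2 summit was also in the promoter window of Y47D3A.14.

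Of DAF-16 targets and effectors of L1 arrest, 3 of 10 had a summit, a share near that of all genes. They were the glyoxylate cycle gene icl-1, at 1.17 ± 0.056, the small heat shock gene hsp-16.2, at 1.23 ± 0.2, and the cell cycle inhibitor gene cki-1, at 0.781 ± 0.22 (SD, n = 2 each). The icl-1 summit was also in the promoter window of srh-2, and the hsp-16.2 summit in that of hsp-16.41.

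**Figure D5:**
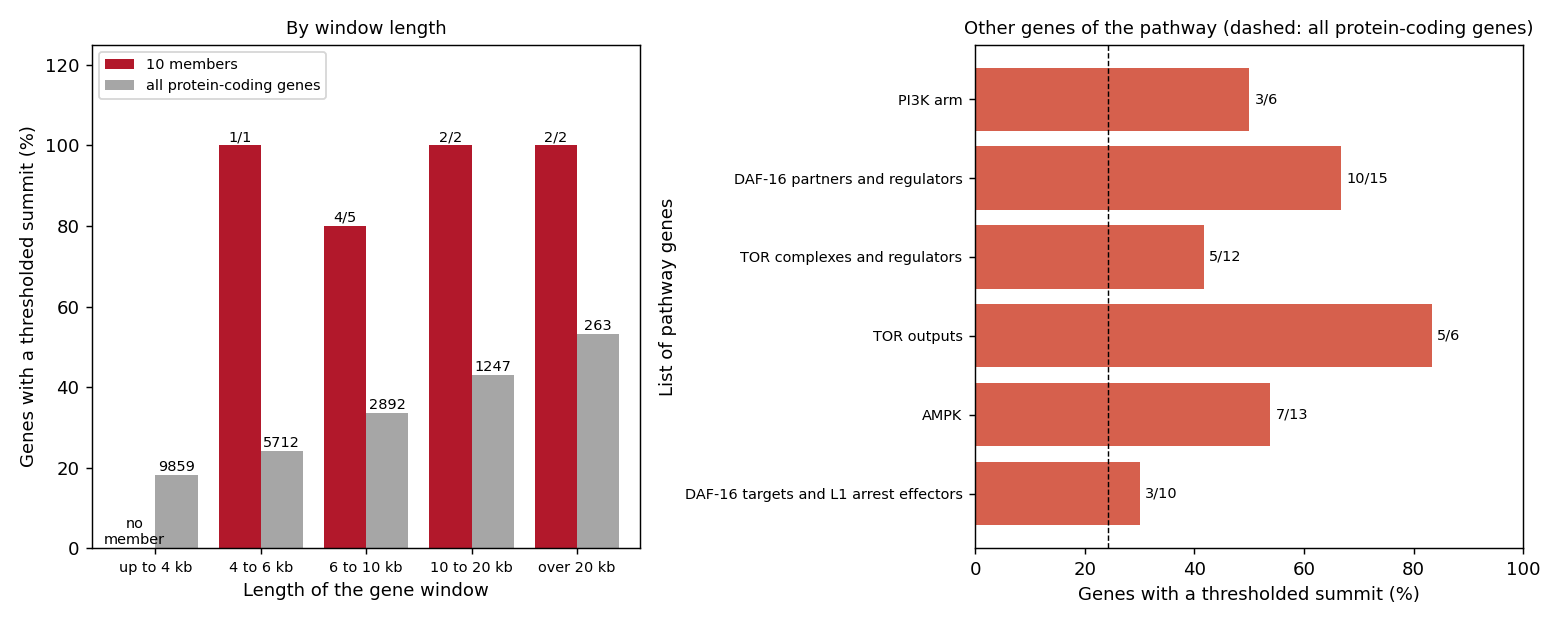
Left, the percentage of genes with a thresholded summit by length of the gene window, for the 10 genes and for all protein-coding genes, with numbers of genes above the bars. Right, the percentage of other pathway genes with one, by list, where the dashed line at 24.2% is the share of all protein-coding genes and all 6 lists reach past it. Members and lists were chosen with earlier results of these data known.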

How the data were processed

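ChIP-seq regions of 2 biological replicates of 1 group were used as deposited, on ce11. Per the submitters' file index, the authors called relaxed lists against a control for each replicate and for both pooled, and kept a thresholded list by the optimal rule of the irreproducible discovery rate. The aligner, caller, cutoff and read depth are not stated there or in the labels. The deposited signal is the caller's value per region, not scaled between lists. The authors' deposited −log10 q value was capped, with many ties, so regions were ranked by signal. A further deposited column gives the summit's offset, of the type other. There were 0 unused per-sample columns. The ce10 lists were not used here.

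Summits were placed with Ensembl release 115 and the RefSeq WBcel235 genome, whose chromosome lengths were compared with the regions, using Python 3.11.15, pandas 2.3.3 and numpy 2.4.6, and scipy 1.17.1 for the exact interval. A replicate's region matched a thresholded one if they overlapped by at least 1 bp, taking the nearest summit. The placement was tested on simulated data. The deposited signal carries each replicate's own depth and caller scaling, and dividing by the replicate's median removes only a factor common to all its regions. The members, pathway lists, motifs and alternatives were chosen with earlier results of these data known. All 10 members were named, with at most 5 genes per pathway list by signal, and other genes that contain a member summit or have it in their promoter window. The genes vep-1, gpx-8 and mrpl-47, and neighbours of the pathway genes, were named after their values were seen. Of the listed pathway symbols, 1 was not found in the annotation. No test was made, since there is 1 group.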

Additional observations from a re-analysis of the deposited data

How the results depend on the processing

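With another upstream limit, list or assignment, the number of members with a thresholded summit was 9 with 1 kb or 3 kb upstream, 7 with the gene body only, 7 with the stronger part of the list and 7 with summits given to the nearest 5′ end only. The share of all protein-coding genes was then 19.9%, 27.4%, 6.17%, 15.4% and 16.6%. Lost were akt-2 and daf-18 with the gene body only, akt-1 and daf-18 with the stronger part, and daf-18 and let-363 with nearest 5′ ends, where daf-16 kept 4 of its 5 summits, without the strongest. The gene age-1 had 0 in each of these. Pathway genes with a summit fell to 10 with the gene body only. In a promoter window of 300 bp upstream to 100 bp downstream, 1 member had a summit.

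The median relative signal of 1.39 was 1.37 when a replicate region had to cover at least 50% of a peak. That left 16 of the 17 summits, without the one at akt-2. The median was 1.36 with replicate summits within 100 bp and 6.43 when divided by the median of the whole replicate list. Without a replicate in turn it was 1.4 to 1.41, and members with a summit were 8 to 9, daf-18 being lost without replicate 2. Ranked by −log10 q, the members' median rank was 1, since 16 of 17 shared the highest value of 3.88 with 3755 regions in all. Member summits with any of the motifs searched were 6, and 11 with 100 bases on either side of the summit. The share of all thresholded summits with any motif was not counted at either width, and a wider window can only add matches. These counts are therefore no result about the members. Values of single summits moved by more than 1 SD in 26 cases, all 17 under the whole-list median, 4 under the 50% overlap and 5 under the 100 bp limit. Leaving out 1 of 2 replicates cannot move a mean that far. No paired analysis was possible because there was 1 group. Depth is unknown, so no signal has a counting error.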
